A study of Schizosaccharomyces pombe with 24 samples.

Results

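Quiescence after 24 h without nitrogen was compared with growth in the small RNA of Schizosaccharomyces pombe, the fission yeast. The comparison takes the 6 libraries titled 24h or 0h of 3 strains, out of 24 libraries of 4 strains and 6 times, and pairs them by strain. The 3 libraries at 24 h came from wt, clr4D and dcr1D cells kept in minimal medium (EMM) lacking nitrogen, and the 3 libraries at 0 h came from the same strains growing in EMM with adenine, histidine, leucine, lysine and uracil. All cultures were held at 32 °C. Every strain is of the 975 h+ background, in which cells are of mating type P. In clr4D the gene for the histone H3 lysine 9 methyltransferase, and in dcr1D the gene for Dicer, is labelled as replaced by a NatMX6 marker, and the labels do not say how many clones were used. RNA of 20 to 30 nucleotides was cut from a gel and sequenced. Each strain and time had 1 library, and nothing states that the 3 strains were grown as separate replicate experiments. P-values therefore rest on the spread between the 3 strain pairs, with variance estimates shared across features, and on no replicate within a strain. The strain labelled ago1D was left out because its early time labels are doubtful.

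A fission yeast cell that loses nitrogen and finds no partner divides to a small size, arrests before DNA replication and stays viable for a long time. It takes apart its own proteins and organelles for nitrogen, switches on permeases for poorer nitrogen sources and makes fewer ribosomes. Small RNA in this species includes the short interfering RNA that Dicer cuts from centromeric transcripts and Argonaute carries to chromatin. A library cut by size also holds fragments of messenger, transfer and mitochondrial RNA, so the level of a gene here is the amount of small RNA mapped to it and not the amount of its messenger. Fewer cells and less RNA per cell cannot be told apart in such material.

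Levels below are counts scaled to a common library size (CPM) by TMM, which sets the bulk of features equal between libraries, and fold changes are 24 h over 0 h on the log2 scale with their standard error (SE). A feature passed at an adjusted p below 0.05. Gene counts came to 188998, 202385 and 187143 in the 24 h libraries of wt, clr4D and dcr1D, against 640322, 634379 and 2121235 in the 0 h libraries. These were 1.27%, 2.1% and 2.31% of the reads in the file at 24 h and 13.1%, 25.2% and 25.2% at 0 h. Reads set aside for low mapping quality, which include those with several equal placements, made up 96.5%, 96% and 96% at 24 h and 79.4%, 67.3% and 67.5% at 0 h. The 24 h library of wt stood apart: its profile over genes, centred on all 18 libraries of the 3 strains, had a correlation of 0.202 with the mean of the other strains of the comparison at 24 h, against 0.538 for clr4D and 0.537 for dcr1D. At 0 h the same value was 0.862 for wt, 0.913 for clr4D and 0.882 for dcr1D. Without the wt pair 652 features were higher and 565 lower at 24 h, and 483 and 445 of these were also called with it. The gene clr4 had 25 counts at 24 h and 51 at 0 h in the libraries labelled clr4D, and dcr1 had 23 and 79 in those labelled dcr1D. For clr4 this was 84.0 CPM at 24 h and 132 CPM at 0 h, above the 35.0 and 49.6 CPM of wt. For dcr1 it was 94.2 and 66.2 CPM, against 112 and 70.6 CPM in wt. How much of either gene was removed is not stated, so these counts by themselves neither bear out nor contradict the labels. At 0 h the pericentromeric transcript SPNCRNA.232 had 1938 counts in wt, 38 in clr4D and 1 in dcr1D, and SPNCRNA.359 had 701, 0 and 0. The cause of that difference was not tested. The names clr4D and dcr1D stand for the libraries so labelled.

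Of 3876 features tested, 675 (17.4%) were higher and 531 (13.7%) were lower at 24 h. In all, 643 of the 675 and 524 of the 531 moved in the same direction in each of the 3 strains. The 24 h libraries lay above every 0 h library for 875 features and below every one for 874. These shares are the level against which the counts of each gene group below can be read. A feature could pass the filter on low counts through the libraries of 1 time alone, which favours a difference in that direction. The median change of all features was 0.02 with TMM, 1.13 with each library scaled to its total count and -2.31 with all reads in the file as library size, so every rise or fall below is relative to the bulk of features.

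Among the largest rises were genes that take up or break down nitrogen compounds. SPAC869.04, annotated as formamidase-like, had 2074, 662 and 459 CPM in wt, clr4D and dcr1D at 24 h, against 3.81, 0 and 1.68 CPM at 0 h. It rose by 8.70 (SE 0.54, adjusted p = 2.35e-13). Its neighbour SPAC869.03c, annotated as a urea transporter, had 399, 222 and 156 CPM at 24 h, against 1.91, 10.4 and 0.838 CPM at 0 h, a rise of 6.11 (SE 0.54, adjusted p = 7.87e-10). Every 24 h library lay far above every 0 h library for both genes. The amino acid transporter gene isp5 had 571, 470.5 and 336 CPM at 24 h, against 5.72, 10.4 and 5.03 CPM at 0 h, and rose by 6.01 (SE 0.44, adjusted p = 1.59e-11). The amino acid permease gene nrg1 had 217 counts over the 3 libraries at 24 h and 2 at 0 h, a ratio of 276 with a 95% exact interval of 75.5 to 2290 that covers counting error only. SPAC869.09, a gene of the Con-6 family, had 22 counts at 24 h and 0 at 0 h, so it passed the filter on low counts through the 24 h libraries alone. Its ratio had a 95% exact lower limit of 13.9, which covers counting error only. With 3 counts over the group put in place of 0 the ratio was 18.7. SPAC869.04, SPAC869.03c, isp5 and nrg1 had at most 6 counts in any 0 h library. They too passed the filter on low counts through the 24 h libraries alone. The groups did not overlap for any of these genes, but all were picked as the largest rises. Their p-values and the lack of overlap therefore give no separate support.

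**Figure D1:**
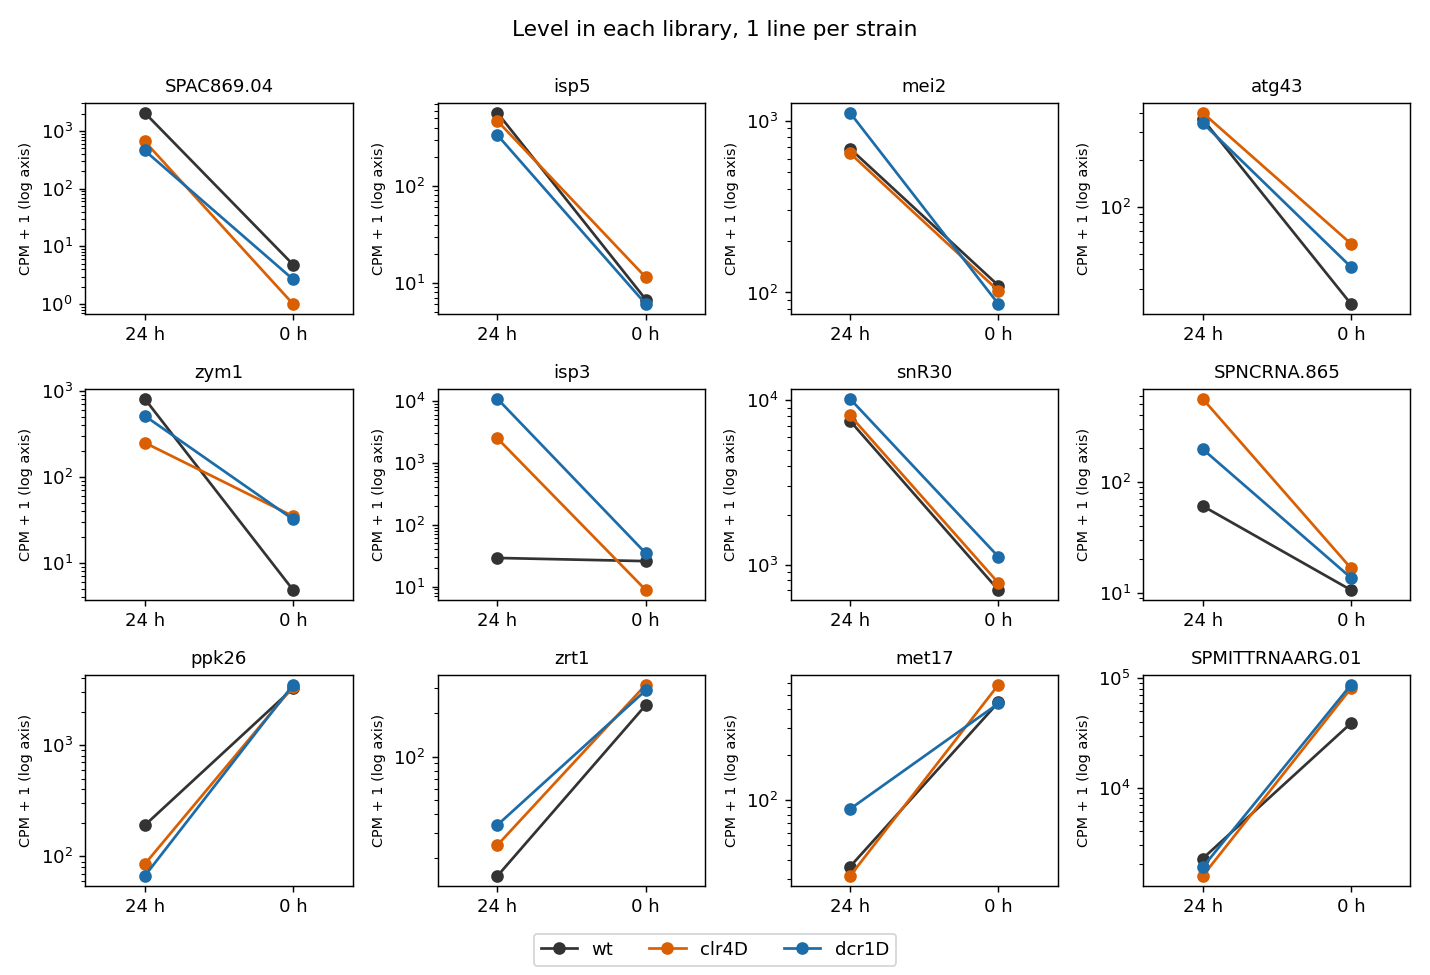
Level of 12 features in each of the 6 libraries, as CPM + 1 on a log axis, with 1 line per strain joining 24 h (left) to 0 h (right). SPAC869.04 had 459 to 2074 CPM at 24 h and at most 3.81 CPM at 0 h, ppk26 had 65.6 to 189 CPM at 24 h and at least 3249 CPM at 0 h, and isp3 in wt had 28.0 CPM at 24 h and 24.8 CPM at 0 h.

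Other genes among the 10 largest rises were mmf2, which is related to isoleucine synthesis (5.34, SE 0.52, adjusted p = 5.06e-09), the aminotransferase gene SPAC27F1.05c (4.94, SE 0.54, adjusted p = 4.34e-08) and SPAC1039.08, annotated as a serine acetyltransferase (4.56, SE 0.52, adjusted p = 7.11e-08). SPAC27F1.05c and SPAC1039.08 lie for 94.7% and 100% of their length under a non-coding RNA on the other strand. dak2, a dihydroxyacetone kinase of glycerol breakdown, had 35.0, 306 and 475 CPM at 24 h, against 3.81, 2.59 and 5.03 CPM at 0 h. It rose by 6.002 (SE 0.56, adjusted p = 2.35e-09), and its level at 24 h was lowest in wt. mmf2, SPAC27F1.05c, SPAC1039.08 and dak2 had at most 6 counts in any 0 h library. These genes likewise passed the filter on low counts through the 24 h libraries alone.

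Of 19 genes on a list for nitrogen and amino acid uptake, 15 were tested. 10 rose and 2 fell, and the median change was 2.15 against 0.02 over all features. isp4, an oligopeptide transporter, had 1699, 991 and 860 CPM at 24 h, against 43.9, 70.1 and 43.6 CPM at 0 h, and rose by 4.45 (SE 0.39, adjusted p = 7.38e-10). isp6, the vacuolar serine protease that degrades proteins delivered to the vacuole, rose by 3.59 (SE 0.38, adjusted p = 2.21e-08), and isp7, an oxygenase of the 2-oxoglutarate family, rose by 3.25 (SE 0.34, adjusted p = 2.11e-08). The proline transporter put4, the permease per1 and the ammonium transporters amt1 and amt3 were among the risen as well, chosen here after their values were seen. Their changes were 3.47 (SE 0.37) for put4, 3.25 (SE 0.38) for per1, 2.12 (SE 0.33) for amt1 and 3.90 (SE 0.56) for amt3. put4 and amt3 lie for 82.1% and 97% of their length under a non-coding RNA on the other strand. The other ammonium transporter, amt2, did not pass (-0.44, SE 0.39, adjusted p = 0.419). The 2 that fell were the amino acid permease aat1 (-1.91, SE 0.41, adjusted p = 0.000517) and the arginine and lysine transporter cat1 (-1.12, SE 0.44, adjusted p = 0.0494).

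Genes of autophagy, by which cells deliver their contents to the vacuole, were higher or did not pass. Of 26 such genes 20 were tested, 11 rose, none fell and 9 did not pass, with a median of 1.56. atg43, the receptor for removal of mitochondria, had 364, 400 and 344 CPM at 24 h, against 22.9, 57.1 and 40.2 CPM at 0 h, and rose by 3.25 (SE 0.37, adjusted p = 6.65e-08). atg8, the ubiquitin-like protein of the autophagosome membrane, had 165, 118 and 184 CPM at 24 h, against 36.2, 41.5 and 37.7 CPM at 0 h (2.01, SE 0.37, adjusted p = 9.83e-05). For both genes the groups did not overlap, but both were named for their small adjusted p. The sorting nexin atg20 rose by 2.15 (SE 0.41) and the kinase subunit atg13 by 1.97 (SE 0.37).

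Among 23 tested regulators of starvation and mating, 10 rose and none fell, with a median of 0.75. mei2, the RNA-binding protein needed for entry into meiosis, had 687, 645 and 1110.3 CPM at 24 h, against 109, 101.2 and 84.6 CPM at 0 h, and rose by 3.03 (SE 0.35, adjusted p = 9.73e-08). The pheromone-pathway MAP kinase spk1 rose by 3.21 (SE 0.41, adjusted p = 4.98e-07). ste6, the exchange factor that activates Ras in that pathway, rose by 3.597 (SE 0.48, adjusted p = 9.09e-07). cgs1, the subunit that holds protein kinase A inactive, had 87.6, 356 and 287 CPM at 24 h, against 59.1, 44.1 and 66.2 CPM at 0 h, so its difference was smaller in wt than in the mutants. ste6 and spk1 lie for 100% and 77.3% of their length under a feature on the other strand. Without the dcr1D pair 5 of the regulators passed instead of 10.

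Of 29 core stress genes tested, 9 rose and 7 fell, and without the dcr1D pair 3 and 2 did. The metallothionein zym1 had 809, 249 and 512 CPM at 24 h, against 3.81, 33.7 and 31.0 CPM at 0 h, and rose by 4.43 (SE 0.49, adjusted p = 5.35e-08). The small heat-shock protein hsp9 rose by 2.48 (SE 0.36, adjusted p = 2.49e-06) and the calcium pump cta3 by 2.03 (SE 0.40, adjusted p = 0.000192), while the DNAJ chaperone mas5 fell by 1.63 (SE 0.35, adjusted p = 0.000516). In wt cta3 had 3 counts at 24 h and 3 at 0 h, and its groups overlapped. It did not pass without the strain term (adjusted p = 0.191). Chaperones split, in a choice made after values were seen: the Hsp70 gene ssa1 rose by 1.23 (SE 0.32), while its relatives ssa2 and sks2 changed by -0.99 (SE 0.35) and -0.95 (SE 0.36) and hsp90 by -1.11 (SE 0.36). The superoxide dismutases sod1 and sod2 rose by 0.96 (SE 0.32) and 0.88 (SE 0.34), and the thioredoxin trx1 fell by 1.26 (SE 0.33). Of 9 genes of glycerol and trehalose metabolism 4 rose and 1 fell: beside dak2, dak1 rose by 1.51 (SE 0.33) and the glycerol dehydrogenase gld1 by 1.63 (SE 0.42), and the glycerol phosphate dehydrogenase gpd2 fell by 1.58 (SE 0.35). Of 16 tested genes of glycolysis and fermentation 2 rose and 2 fell, no larger a share in either direction than among all features. The pyruvate decarboxylase pdc201 rose by 3.96 (SE 0.39, adjusted p = 5.06e-09) and the glyceraldehyde phosphate dehydrogenase gpd3 by 3.18 (SE 0.43, adjusted p = 9.34e-07), while phosphoglycerate kinase pgk1 fell by 1.74 (SE 0.42, adjusted p = 0.00189) and the alcohol dehydrogenase adh4 by 1.58 (SE 0.39, adjusted p = 0.00224). Of 8 hexose transporters 3 were tested, and ght8 alone passed, with a change of -0.89 (SE 0.33, adjusted p = 0.0403). With total counts ght8 stood at 0.23, and it did not pass with any of the 3 strain pairs left out (adjusted p 0.0687 without wt, 0.287 without clr4D and 0.108 without dcr1D). Without the dcr1D pair pgk1, adh4 and gld1 did not pass either (adjusted p 0.0946, 0.0647 and 0.18), nor did pgk1 without the clr4D pair (0.0639).

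The largest fall of a protein-coding gene was that of ppk26, annotated as a subunit of the PAN deadenylase complex. It had 189, 84.0 and 65.6 CPM at 24 h, against 3249, 3363 and 3492 CPM at 0 h, and fell by 4.999 (SE 0.45, adjusted p = 9.18e-10). The zinc transporter zrt1 had 14.01, 23.5 and 32.8 CPM at 24 h, against 227, 314 and 287 CPM at 0 h (-3.58, SE 0.41, adjusted p = 9.02e-08). The homocysteine synthase met17 had 35.0, 30.2 and 86.0 CPM at 24 h, against 444, 581 and 436 CPM at 0 h (-3.34, SE 0.40, adjusted p = 1.35e-07). No library at 24 h reached the lowest library at 0 h for any of the 3 genes, which were named for the size of their fall. Further falls were those of the mitochondrial chaperone ssc1 (-2.93, SE 0.37), the glycine cleavage subunit gcv2 (-2.89, SE 0.38), the septum glucanase eng1, which separates daughter cells (-2.89, SE 0.39), the acid phosphatase pho1 (-2.88, SE 0.35), the BRCT protein mug176 (-2.77, SE 0.52) and the D-lactate dehydrogenase dld2 (-2.75, SE 0.40). On the list of iron and phosphate genes 3 of 10 fell, of which str1, a siderophore transporter, changed by -2.55 (SE 0.44), and 1 rose, the glycerophosphodiester transporter tgp1 (3.09, SE 0.40, adjusted p = 4.98e-07).

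Ribosomal protein genes stood lower than the median feature, though their own median was -0.63 with TMM and 0.49 with total counts. Of 141 tested, 49 fell, none rose and 92 did not pass. For 66 of them every 24 h library lay below every 0 h library, as it did for 874 of all 3876 features. rpl4102 had 140.1, 63.9 and 131 CPM at 24 h, against 643, 810 and 859 CPM at 0 h (-2.82, SE 0.36, adjusted p = 4.98e-07), and rps2501 had 165, 63.9 and 94.2 CPM at 24 h, against 629, 589 and 549 CPM at 0 h (-2.52, SE 0.35, adjusted p = 1.79e-06). The lowest value at 24 h was in clr4D for both. rps1402 fell by 2.19 (SE 0.37) and rpl4101 changed by -2.105 (SE 0.35), and rpl4101 lies wholly under chl1 on the other strand. The number that fell was 91 without the wt pair, 22 without the clr4D pair and 11 without the dcr1D pair. Most ribosomal proteins are encoded by near-identical gene pairs, so the level of a single copy is uncertain. Of 37 tested genes of RNA polymerase I and ribosome assembly 4 rose and 6 fell, near the 17.4% and 13.7% of all features or below them. The large subunits of the polymerase, nuc1 and rpa2, stood at -1.26 (SE 0.32) and -1.24 (SE 0.35), nop58 at -1.27 (SE 0.33) and the export GTPase nog2 at 1.74 (SE 0.34). nog2 lies for 93.3% of its length under a non-coding RNA. Without the dcr1D pair nuc1, rpa2 and nop58 did not pass (adjusted p 0.0586, 0.0677 and 0.11), nor did rpa2 without the clr4D pair (0.104).

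Histone genes split. hht2 and hhf2, a divergent H3 and H4 pair, had 1744, 793 and 824 CPM and 476, 245 and 283 CPM at 24 h, against 233, 257 and 306 CPM and 57.2, 98.6 and 99.7 CPM at 0 h. They rose by 1.98 (SE 0.35, adjusted p = 5.98e-05) and 1.94 (SE 0.37, adjusted p = 0.000119). hht3 rose by 1.33 (SE 0.34), and hht1, whose product is the same H3 protein, fell by 1.33 (SE 0.33, adjusted p = 0.00249). With total counts hht1 did not pass (-0.21, adjusted p = 0.566). The other 6 of 10 tested histone genes did not pass. On the cell cycle list 4 of 28 rose and 1 fell, no larger a share in either direction than the 17.4% and 13.7% of all features. The securin cut2 rose by 1.81 (SE 0.43), the replicative helicase subunit mcm5 by 1.24 (SE 0.36), the ribonucleotide reductase inhibitor spd1 by 1.29 (SE 0.38) and the cyclin puc1 by 1.28 (SE 0.43), while mcm7, of the same helicase as mcm5 and named after its value was seen, fell by 1.20 (SE 0.44, adjusted p = 0.035). Several of these calls depended on which pairs were kept. hht1, hht3, mcm5, spd1 and puc1 did not pass without the dcr1D pair (adjusted p 0.0614, 0.0628, 0.164, 0.0747 and 0.218). hht3, spd1 and puc1 did not pass without the wt pair either (0.0701, 0.0919 and 0.286). Each kept its direction in these fits, and hht1 stood at -1.35 without the dcr1D pair, so the size of its fall did not rest on that pair.

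Genes of the RNA interference machinery rose in 5 of 11 tested cases and fell in none, with a median of 0.91. ago1, which encodes Argonaute, had 91.1, 118 and 73.7 CPM at 24 h, against 26.7, 33.7 and 26.8 CPM at 0 h, and rose by 1.66 (SE 0.40, adjusted p = 0.00172). The Argonaute-binding gene arb1 rose by 2.34 (SE 0.42), the RNA-directed RNA polymerase rdp1 by 1.44 (SE 0.37) and its partner cid12 by 1.39 (SE 0.42, adjusted p = 0.0108). arb1 lies wholly under a non-coding RNA on the other strand. dcr1 did not pass, at 112, 84.0 and 94.2 CPM at 24 h, against 70.6, 46.7 and 66.2 CPM at 0 h (0.66, SE 0.37, adjusted p = 0.173). The number that passed was 3 without the clr4D pair, without the dcr1D pair or with DESeq2. Of 21 tested heterochromatin factors 3 rose, no larger a share than the 17.4% of all features. Among them were the acetyltransferase mst2, which lies wholly under sec3 (2.13, SE 0.42), and red1, which helps to remove meiotic transcripts (1.46, SE 0.38). The mst2 difference within wt was 0.31, on 13 counts at 24 h and 19 at 0 h, and its groups overlapped. cid12 did not pass without the clr4D pair (adjusted p = 0.0606) or without the dcr1D pair (0.143), and red1 did not pass without the dcr1D pair (0.0536). The exosome nuclease rrp6 did not pass (0.93, SE 0.39, adjusted p = 0.0708), and clr4 itself had a change of -0.48 (SE 0.42, adjusted p = 0.411).

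Counts at the pericentromeric transcripts, whose small RNA is the main product of RNA interference in growing cells, were lower at 24 h in wt. Small RNA shared between copies of a repeat is left out of these counts and those of tlh2, because reads with several equal placements were set aside. Reads of low mapping quality made up 96.5% in wt at 24 h and 79.4% at 0 h. The level of the repeats as a whole was not tested. SPNCRNA.232 had 101 counts at 24 h and 1938 at 0 h, a ratio of 0.0957 (95% exact interval 0.0776 to 0.117). SPNCRNA.359 had 147 counts at 24 h and 701 at 0 h (ratio 0.385, interval 0.32 to 0.461), and SPNCRNA.231 had 11 and 77 (ratio 0.262, interval 0.126 to 0.496). With total-count scaling the ratios were 0.177, 0.71 and 0.484. These intervals cover counting error in 1 library a side and say nothing of the spread between cultures. SPNCRNA.232 had 4 counts at 24 h and 38 at 0 h in clr4D and 1 and 1 in dcr1D, and its fitted change over the 3 strains was -3.08 (SE 0.53, adjusted p = 3.28e-05). That change did not pass with DESeq2 (adjusted p = 0.287) or without the strain term (adjusted p = 0.174). SPNCRNA.359 had at most 1 count in any library of clr4D or dcr1D and was not tested, and SPNCRNA.231 did not pass (-0.69, SE 0.61, adjusted p = 0.416), although it did without the clr4D pair (-1.65, adjusted p = 0.0328). The subtelomeric helicase gene tlh2 did not pass either (0.42, SE 0.45, adjusted p = 0.509).

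Mitochondrial RNA fell in every strain. All 25 mitochondrial tRNAs and all 8 other mitochondrial features tested were lower, with medians of -3.01 and -2.67. SPMITTRNAASP.01 had 3895, 2494 and 4507 CPM at 24 h, against 68716, 125185 and 113802 CPM at 0 h (-4.81, SE 0.70, adjusted p = 3.49e-06). SPMITTRNALEU.01 fell by 5.16 (SE 0.60), SPMITTRNAARG.01 by 5.12 (SE 0.68), SPMITTRNALEU.02 by 4.74 (SE 0.57) and SPMITTRNALYS.01 by 4.43 (SE 0.63). Mitochondrial tRNAs made up 5.64%, 4.36% and 6.46% of gene counts at 24 h and 31.2%, 43.2% and 43.0% at 0 h. As a share of all reads in the file they were 56.7-, 119- and 72.5-fold lower at 24 h in wt, clr4D and dcr1D. Over 3 pairs the exact sign-flip test, two-sided, gave p = 0.25, the smallest value this design allows. Of 32 tested nuclear genes of oxidative phosphorylation 3 rose and 6 fell, and of 14 factors of mitochondrial RNA none rose and 2 fell, against 17.4% and 13.7% of all features. Those named next beyond the 4 of smallest adjusted p per list were chosen after their values were seen. The ATP synthase subunit atp2 fell by 1.85 (SE 0.33) and qcr1 of complex III by 1.84 (SE 0.34), atp1, atp3, cyt1 and sdh1 fell by between 1.15 and 1.58, cox5 and cox7 of cytochrome oxidase rose by 2.16 (SE 0.40) and 2.28 (SE 0.51), qcr7 of complex III rose by 1.27 (SE 0.35), and ppr7 and ppr1 fell by 2.24 (SE 0.50) and 1.57 (SE 0.41). Without the wt pair cox7 did not pass (adjusted p = 0.0567).

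Nuclear tRNAs divided into a large falling and a small rising set. Of 171 in the tables, 62 were tested, 41 fell, 4 rose and 17 did not pass. SPATRNALEU.01 had 1061, 4150.5 and 12308 CPM at 24 h, against 53152, 82626 and 122193 CPM at 0 h (-4.41, SE 0.70, adjusted p = 1.23e-05), so that the 24 h level was lowest in wt and highest in dcr1D. SPBTRNAGLY.03 fell by 5.03 (SE 0.55) and SPATRNAILE.01 by 3.91 (SE 0.45). SPCTRNATHR.10 had 333, 669 and 1045 CPM at 24 h, against 82.0, 85.6 and 203 CPM at 0 h, and rose by 2.44 (SE 0.34, adjusted p = 1.58e-06), while SPBTRNATHR.06 rose by 1.80 (SE 0.33) and SPBTRNAHIS.02 by 1.33 (SE 0.34), which did not pass without the dcr1D pair (adjusted p = 0.209). Many tRNA genes have identical copies, so the level of a single copy is uncertain; the origin of the reads set aside for low mapping quality was not tested.

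Stable structural RNAs of the nucleus took a larger share at 24 h. Of 9 tested snoRNAs 7 rose and none fell, with a median of 1.88. snR30, which guides cleavage of ribosomal RNA precursors, had 7514, 8106 and 10239 CPM at 24 h, against 698, 771 and 1114 CPM at 0 h (3.34, SE 0.43, adjusted p = 5.49e-07). snR90 rose by 2.59 (SE 0.36) and the snoRNA precursor SPNCRNA.1483 by 2.40 (SE 0.35). Among other structural RNAs the telomerase RNA ter1 rose by 2.51 (SE 0.37, adjusted p = 3.61e-06), the RNase MRP transcripts SPNCRNA.727.1 and SPNCRNA.82.1 by 1.76 (SE 0.33) and 1.61 (SE 0.45), and the RNase P RNA rrk1 by 1.35 (SE 0.34). SPNCRNA.82.1 did not pass without the wt pair (adjusted p = 0.245). The signal recognition particle RNA srp7, the most abundant feature at 24 h in all 3 strains, did not pass (-0.59, SE 0.60, adjusted p = 0.489).

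**Figure D2:**
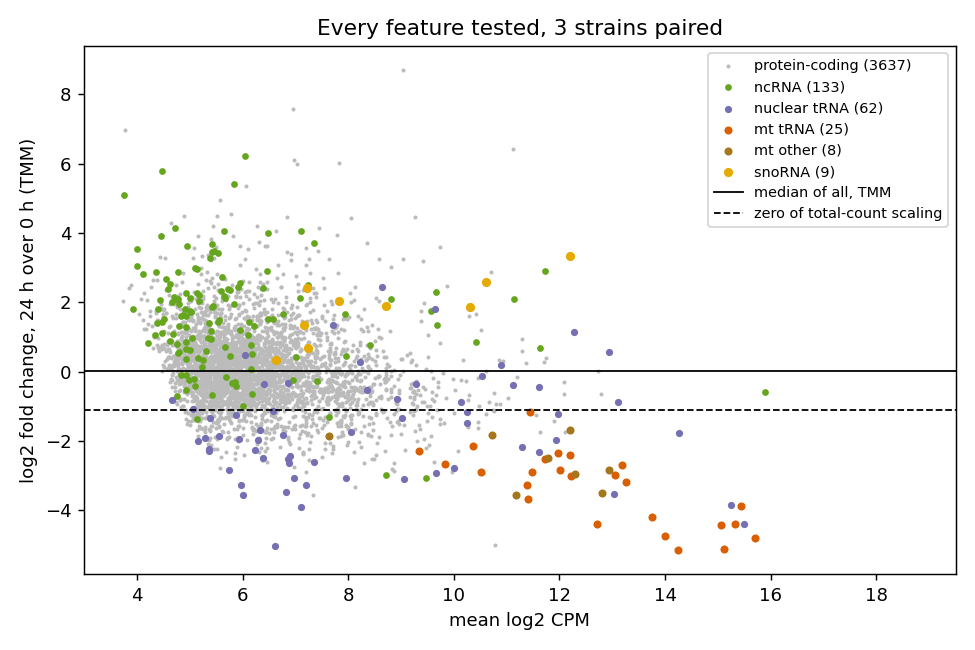
Log2 fold change of 24 h over 0 h (TMM) against mean log2 CPM for the 3876 features tested, coloured by class, with the number tested in brackets. Mitochondrial tRNAs (median -3.01) lie below the solid line, the median of all features, while snoRNAs (median 1.88) lie above it; the dashed line marks where a fold change would be 0 with total-count scaling.

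In the annotated class of non-coding RNAs, which also holds ter1, rrk1, the RNase MRP transcripts and SPNCRNA.232 given above, 83 members rose and 4 fell. Of 1526 in the tables only 133 passed the filter on low counts, and a feature could pass it through the 24 h libraries alone, so these counts describe those 133 and not the class. SPNCRNA.577 had 117 counts at 24 h and 3 at 0 h over the 3 libraries, a ratio of 99.2 (95% exact interval 33.1 to 488). SPNCRNA.853 had 39 and 1 (ratio 99.2, interval 16.8 to 4020) and SPNCRNA.602 had 21 and 1 (ratio 53.4, interval 8.59 to 2210). SPNCRNA.1364 had 151, 77.3 and 131 CPM at 24 h, against 1.91, 7.78 and 0.838 CPM at 0 h (5.41, SE 0.60, adjusted p = 5.34e-08). SPNCRNA.611 rose by 4.14 (SE 0.54) and SPNCRNA.865 by 4.07 (SE 0.46). SPNCRNA.504 fell by 2.99 (SE 0.39, adjusted p = 6.69e-07), SPNCRNA.1644 by 1.36 (SE 0.46) and SPNCRNA.1626 by 1.32 (SE 0.34). SPNCRNA.1644 and SPNCRNA.1626 did not pass without the dcr1D pair (adjusted p 0.166 and 0.138), and SPNCRNA.1644 did not pass without the clr4D pair (0.142). Of the 83 that rose, 56 overlap by at least 50% a protein-coding or other gene on the other strand, and 44 of those partners were tested. Of these partners 23 rose, 2 fell and 19 did not pass, beside 17.4% higher and 13.7% lower over all features. SPNCRNA.934 and SPNCRNA.935 are each other's partner, so each is counted on both sides. Whether a risen non-coding RNA and its partner are linked was not tested. SPNCRNA.577 was higher while its partner SPBC1652.02 was lower by 1.93, and SPNCRNA.865 and SPNCRNA.1364 were higher along with their partners SPAPB24D3.07c (1.48) and htr11 (1.44).

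Transcripts of mating and of spores differed between strains at 24 h. In wt the 7 genes on a list of M-cell genes summed to 112 CPM at 24 h and 87.7 CPM at 0 h, in clr4D to 2947 and 158 CPM, and in dcr1D to 2516 and 152 CPM. The M-factor pheromone genes mfm1 and mfm3 had 286 and 382 counts in clr4D and 195 and 297 counts in dcr1D at 24 h, against 0 and 1 counts in clr4D and 4 and 3 counts in dcr1D at 0 h. In wt at 24 h they had 2 and 0 counts. mfm1 and mfm3 did not pass the filter on low counts in 3 libraries, and mfm2 and mam3 passed and rose by 2.32 (SE 0.47) and 1.99 (SE 0.44). In wt mfm2 had 2 counts at 24 h and 0 at 0 h, and the mam3 difference was 0.32. The 3 M-factor genes are near-identical in their coding parts. The 5 P-cell genes summed to 406, 494 and 803 CPM at 24 h in wt, clr4D and dcr1D, against 328, 301 and 357 CPM at 0 h. Of them, the P-factor gene map2 rose by 2.39 (SE 0.46, adjusted p = 0.000144), with 66.6, 111 and 291 CPM at 24 h against 40.04, 18.2 and 24.3 CPM at 0 h. Without the dcr1D pair mfm2 and map2 did not pass (adjusted p 0.0572 and 0.0649).

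isp3, a protein of the spore surface, had 28.0 CPM in wt, 2487 CPM in clr4D and 10833 CPM in dcr1D at 24 h, against 24.8, 7.78 and 33.5 CPM at 0 h. Its fitted change was 6.44 (SE 0.98, adjusted p = 6.58e-06), but the difference within wt was 0.16, and 62.5% of the gene lies under SPNCRNA.606 on the other strand. On a list of 18 spore and meiosis genes, chosen after values were seen, the summed level was 322, 3428 and 12120 CPM at 24 h in wt, clr4D and dcr1D, against 360.4, 335 and 374 CPM at 0 h, and isp3 made up most of it in clr4D and dcr1D at 24 h. agn2, a glucanase that opens the ascus wall, had 8, 36 and 84 counts at 24 h, against 13, 8 and 25 at 0 h. spo3, a gene of the forespore membrane, went the other way, with 7.01, 16.8 and 24.6 CPM at 24 h, against 55.3, 38.9 and 57.0 CPM at 0 h (-1.65, adjusted p = 0.00774), and the meiotic transcription factor mei4 had 2, 3 and 6 counts at 24 h, against 13, 14 and 34 at 0 h, and was not tested. The forespore membrane gene meu14 and the kinase genes spo4 and spo6 had between 0 and 5 counts in every library. Whether spores or cells of type M were part of the 24 h cultures of clr4D and dcr1D was not tested, and with 1 library per strain and time the difference between strains has no replicate.

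The size of the change over whole chromosomes also differed between strains, and on chromosome III its sign did. Of 1735 tested protein-coding genes on chromosome I, 20.9% rose and 8.41% fell, of 661 on chromosome III 20% rose and 8.47% fell, and of 1241 on chromosome II 7.01% rose and 20.1% fell. In clr4D the median log2 difference of 24 h minus 0 h was 0.44 on chromosome I, -0.72 on chromosome II and 0.44 on chromosome III. In dcr1D it was 0.20, -0.32 and -0.13, and in wt 0.00, -0.06 and 0.08. When the genes of each chromosome were taken in order in blocks of about 100, all 12 blocks of chromosome II had a median below 0 in clr4D (-0.90 to -0.43) and in dcr1D (-0.54 to -0.11), and all 17 blocks of chromosome I had a median above 0 in both. In wt 11 of the 12 blocks of chromosome II had a median below 0 as well, within a narrower range (-0.22 to 0.09), and the blocks of chromosome I lay between -0.20 and 0.27, 11 of 17 below 0. The pattern is a description chosen after values were seen.

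**Figure D3:**
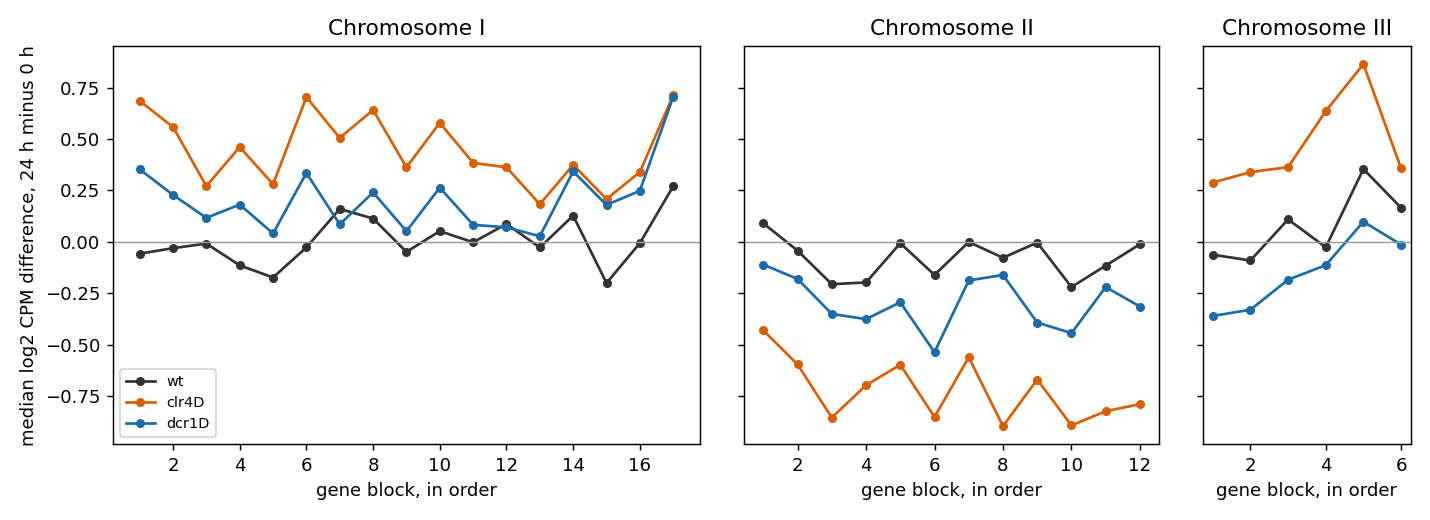
Median log2 CPM difference of 24 h minus 0 h of successive blocks of about 100 tested protein-coding genes along each chromosome, 1 line per strain. On chromosome II all 12 blocks of clr4D lie between -0.90 and -0.43, those of dcr1D between -0.54 and -0.11 and those of wt between -0.22 and 0.09.

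Relative to chromosome I, and after centring each gene over all 24 libraries, chromosome II stood at -0.80 in clr4D at 24 h, against 0.31 at 0 h and 0.05 at 10 h. In dcr1D it stood at -0.46 at 24 h, against 0.09 at 0 h, and at -0.11, -0.07, -0.20 and -0.25 at 1, 2, 4 and 10 h. In the libraries labelled ago1D it stood at -0.41 at 24 h and 0.01 at 0 h. In wt it stood at 0.21 at 24 h and 0.28 at 0 h, and at every time between 0.19 and 0.28. When each chromosome was given a TMM factor of its own, an alternative chosen after seeing the data, 691 features rose and 561 fell. Of the 675 and 531 features that had risen and fallen under a common factor, 589 and 429 passed again in the same direction and none in the opposite direction. With it 42 ribosomal protein genes were lower instead of 49, 12 autophagy genes were higher instead of 11, 1 gene of RNA polymerase I and ribosome assembly was higher instead of 4, and 9 genes of oxidative phosphorylation were lower instead of 6.

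Several of the named genes lie near the ends of chromosome I. Of the 40 counted protein-coding genes nearest each end, a number chosen after values were seen, 10 were tested at the left end and 7 rose, and 18 were tested at the right end, where 15 rose and 1, cat1, fell. In the interior 1707 of 2251 counted genes were tested and 340 rose (19.9%). Fewer end genes passed the filter on low counts, and some passed it through the 24 h libraries alone, such as SPAC869.09 with 0 counts at 0 h, so the shares at the ends are partly fixed by the filter and are not compared with the interior. The right end holds isp5, mmf2, put4, SPAC1039.08, SPAC869.03c, SPAC869.04 and SPAC869.09, so it repeats genes given above. At the ends of chromosome II 1 of 6 and 2 of 12 rose, and at those of chromosome III 8 of 26 and 5 of 29.

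The size and often the sign of a change depended on how libraries were scaled. The 10 most abundant features held 16.2%, 15.6% and 21.2% of gene counts in wt, clr4D and dcr1D at 24 h, against 39.2%, 48.8% and 46.5% at 0 h. With each library scaled to its total count, 2216 features (57.2%) were higher and 117 (3.02%) lower, and the median of all features was 1.13 instead of 0.02. All 675 features called higher under TMM were called higher again, and the 117 called lower were all among the 531 called lower under TMM. Protein-coding genes made up 72.9%, 69.0% and 63.4% of gene counts at 24 h and 40.6%, 30.7% and 30.2% at 0 h. With library size taken as all reads in the file, chosen after seeing the data, 58 features were higher and 3424 lower, and the median was -2.31.

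**Figure D4:**
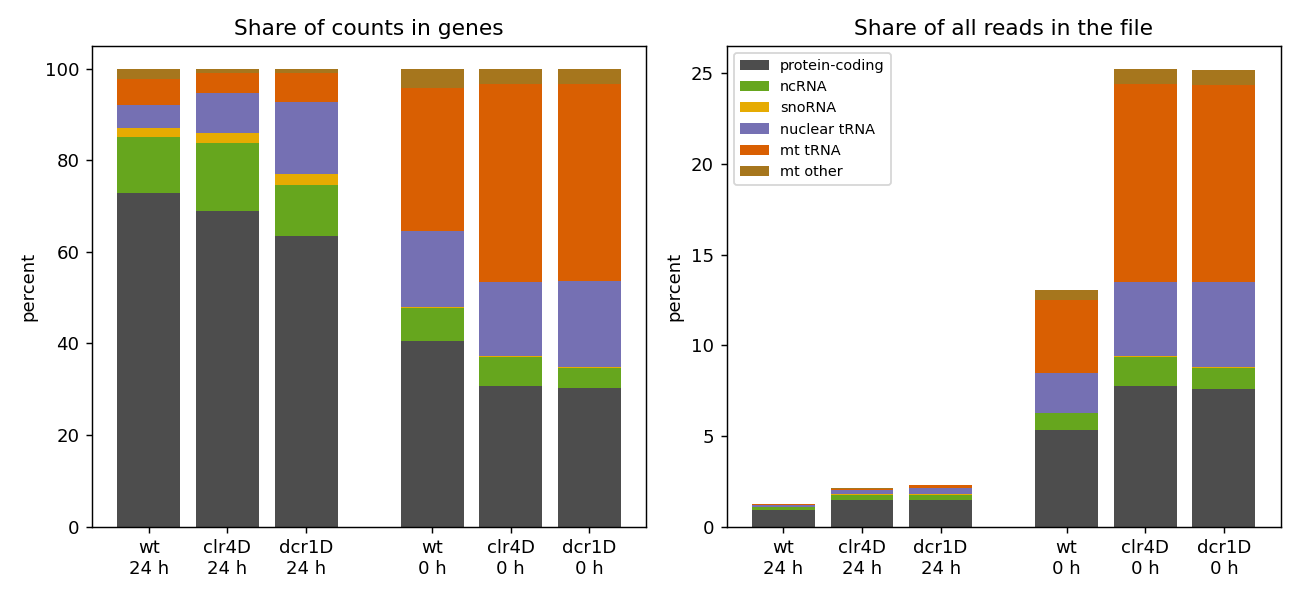
Share of gene counts (left panel) and of all reads in the file (right panel) held by each class of feature, in percent, with the 3 libraries of 24 h left of the 3 of 0 h in each panel. Mitochondrial tRNAs held 4.36% to 6.46% of gene counts at 24 h and 31.2% to 43.2% at 0 h, and all classes together held 1.27% to 2.31% of reads at 24 h and 13.1% to 25.2% at 0 h.

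Since a scaling factor moves all features of a library alike, the place of a gene group relative to all features is nearly fixed by construction under TMM and total counts. The median of the uptake list lay 2.14 above that of all features with TMM and 2.15 above it with total counts, autophagy 1.54 and 1.54, and snoRNAs 1.86 and 1.87. Ribosomal proteins lay below it (-0.64 and -0.65), as did nuclear tRNAs (-1.86 and -1.91) and mitochondrial tRNAs (-3.02 and -3.01). The counts that passed did depend on it: with total counts 19 autophagy genes rose instead of 11, and 41 ribosomal protein genes rose and 5 fell instead of 0 and 49. Mitochondrial tRNAs fell in 24 of 25 cases, and nuclear tRNAs fell in 22 and rose in 10 instead of 41 and 4. The falls of mas5, gpd2, pgk1, adh4, nuc1, rpa2, nop58, hht1, ppr1, ppr7 and qcr1 did not pass with total counts. Nor did those of SPNCRNA.1626, SPNCRNA.1644 and the phenylalanine tRNA SPCTRNAPHE.05. Adjusted p in these cases ran from 0.054 for qcr1 to 0.739 for rpa2. With all reads as the library size, 7 uptake genes were higher and 5 lower, and all 25 mitochondrial tRNAs, 141 of 141 ribosomal proteins and 9 autophagy genes were lower. As a share of all reads snoRNAs were 1.15, 1.38 and 1.20 times as high at 24 h as at 0 h in wt, clr4D and dcr1D, whereas protein-coding genes were 5.72-, 5.35- and 5.19-fold lower.

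**Figure D5:**
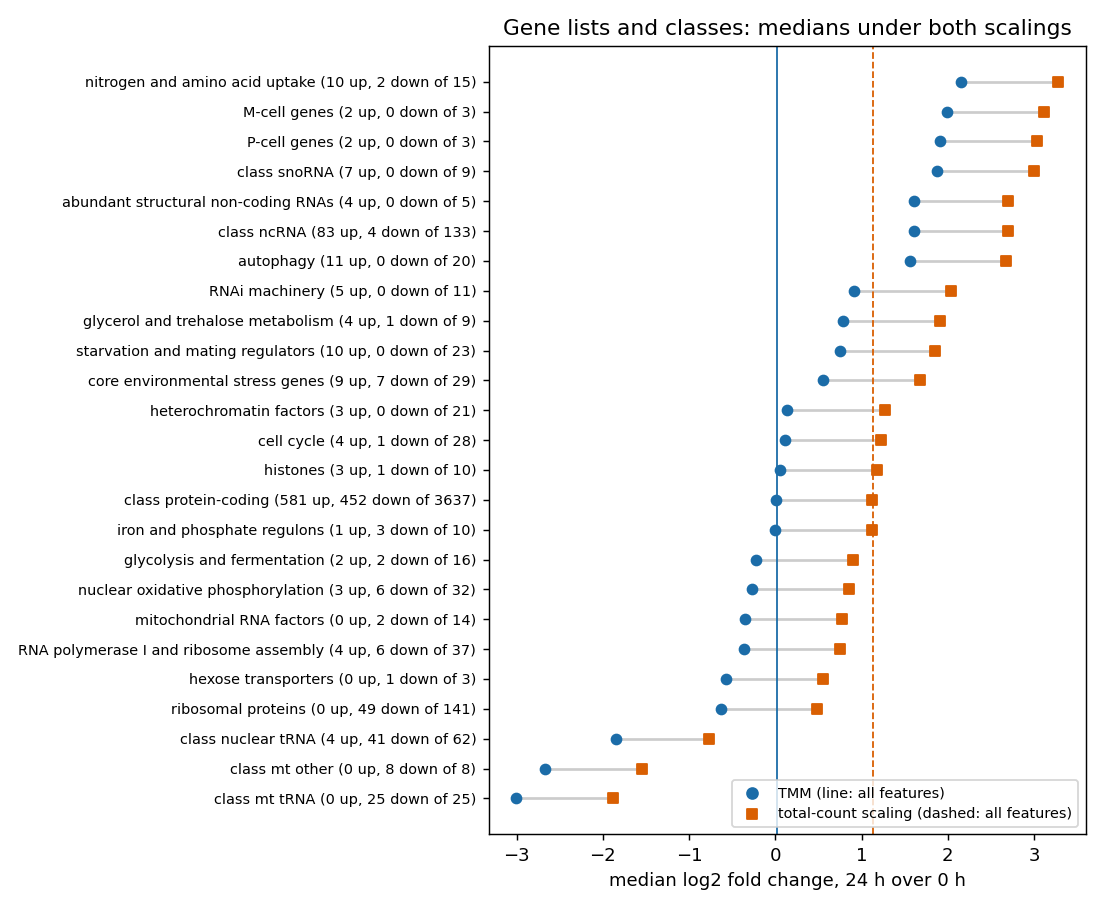
Median log2 fold change of 24 h over 0 h for each gene list and class, with TMM (circles) and total-count scaling (squares), and the number that rose and fell with TMM out of those tested in brackets. Every group moves by about the same amount between scalings as the median of all features, 0.02 with TMM (solid line) and 1.13 with total counts (dashed line).

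The libraries labelled ago1D, which took no part in the comparison, were set beside it. In that strain 70.7% of the 675 risen features were higher at 24 h than at 0 h, as were 26% of the 531 fallen features and 48.6% of all 3876. The profile of the library labelled ago1D 0 h had a correlation of 0.631 over genes with the other strains at 1 h and of -0.208 with them at 0 h, a description across genes, which are not replicates.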

How the data were processed

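Small RNA was sequenced with a TruSeq Small RNA kit, per the labels. The deposited files hold raw counts per gene, made with cutadapt, Bowtie2 2.1.0 and HTSeq 0.6.1 on the ASM294v2 genome, per the submitters' processing notes. The 5 summary lines of each file, among them reads of low mapping quality, stayed out of library sizes and tests, which left 1.27% to 2.31% of the reads in the file at 24 h and 13.1% to 25.2% at 0 h. Features keep the files' names, and 6722 of 6878 (97.73%) were matched to an ASM294v3 annotation for class, order and overlap only. Of 469 features lying wholly within a feature on the other strand 444 had a count, and of 31 within one on the same strand 1 had, so strands were counted apart. Which strand counts as sense is not stated. The 10 most abundant features of each library included srp7 and tRNAs, which are transcribed from the strand they are annotated on.

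Counts of the 6 libraries were fitted in R 4.3.3 with edgeR 4.0.16 (quasi-likelihood F-test, terms for strain and time, TMM, Benjamini-Hochberg adjustment over 3876 of 6493 features with a count, minimum count 10, threshold 0.05). The fit had 2 residual degrees of freedom, and its variance estimates were drawn toward a trend over all features tested. SE is the log2 fold change divided by the square root of F. Per-strain log2 differences used a prior count of 1. Intervals are exact at 95% and cover counting error only, since the reads carry no molecular identifiers. Shares were compared over 3 pairs with an exact sign-flip test, two-sided.

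Named features passed, moved in 1 direction in all 3 strains and averaged more than 3 on the log2 CPM scale, taken by size within each class, with up to 4 members of smallest adjusted p per list, passing or not; ago1, clr4, dcr1 and the pericentromeric features were always named. Other named features, among them srp7, amt2 and overlap partners, were chosen after their values were seen. The comparison, members and lists were chosen with earlier results of these data known. The blocks and ends of chromosomes and the spore list were chosen after values were seen. Alternatives were total-count and RLE scaling, TMM without tRNA and mitochondrial features, DESeq2 1.42.0, no filter, 18 libraries, an added ago1D pair, no strain term and each pair left out. The fit was tested on simulated data.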

Additional observations from a re-analysis of the deposited data

Results flagged for a closer look

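For 8 features of mean log2 CPM above 5 the difference of 24 h minus 0 h lay above 1 in at least 1 strain and below -1 in another, and these 8 had the widest range of 65 such features. The difference between strains was not tested, since each strain and time had 1 library. SPNCRNA.857 had 3.50, 410.0 and 303 CPM in wt, clr4D and dcr1D at 24 h, against 22.9, 25.9 and 65.3 CPM at 0 h, so its log2 differences spanned 6.05, with 1 count in wt at 24 h. SPNCRNA.1153 had 10.5, 403 and 135 CPM at 24 h, against 30.5, 41.5 and 41.9 CPM at 0 h, a span of 4.59. Both were lower at 24 h in wt and higher in the mutants.

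The phenylalanine tRNA SPCTRNAPHE.05 went the other way, with 736, 13.4 and 8.19 CPM at 24 h, against 364, 262 and 182 CPM at 0 h, a span of 5.18. The pericentromeric SPNCRNA.232 spanned 4.47, but in dcr1D it rests on 1 count at each time. The mitochondrial ribosomal protein genes mrp5 and mrpl17 spanned 5.94 and 4.38, and in wt at 24 h mrp5 had 0 counts and mrpl17 had 1. The spore wall glucanase eng2 had 21.02, 121 and 393 CPM at 24 h, against 85.8, 80.4 and 68.7 CPM at 0 h, a span of 4.41. The kinesin klp2 had 7.01, 97.5 and 86.0 CPM at 24 h, against 55.3, 57.1 and 32.7 CPM at 0 h, a span of 4.01.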

How the results depend on the processing

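Total-count scaling called 2333 features (2216 higher, 117 lower), against 1206 with TMM, and all reads in the file as library size, chosen after seeing the data, called 3482 (58 higher, 3424 lower). DESeq2 called 445 higher, and with the ago1D pair added 784 were called, 430 of them higher. Leaving out each strain pair in turn gave 699 to 1217 calls, 446 to 652 higher and 253 to 565 lower, with the lowest numbers without dcr1D. RLE scaling, TMM without tRNA and mitochondrial features, no filter, 18 libraries, no strain term and TMM within each chromosome stayed within 1.5 times of the total. As a share of all reads instead of gene counts, the mean difference of 24 h minus 0 h for mitochondrial tRNAs was -8.50 percentage points, and those for protein-coding genes and ncRNAs turned to -5.61 and -0.98. With total counts sxa1 stood at 1.11, ght2 at 0.87 and ght8 at 0.23, each below 0 with TMM. With all reads as library size 226 of the 675 features that were higher with TMM were called lower; under the other alternatives no call turned to the opposite direction. The fit pairs libraries by strain, and the labels give no other replicate number: without the strain term (no replicate block) 651 features were higher and 479 lower. Depth of 187143 to 202385 gene counts at 24 h and 634379 to 2121235 at 0 h limited the test to 3876 of the 6493 features with a count.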
